A study of Homo sapiens with 6 samples.

Results

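DICER1 and 9 other genes of the microRNA processing machinery were followed on 6 Affymetrix whole-transcript arrays of HepG2 cells with and without a hairpin against SND1. The 10 genes were taken by name: DROSHA and DGCR8 of the nuclear Microprocessor, the export receptor XPO5, the cytoplasmic nuclease DICER1 with its partners TARBP2 and PRKRA, and the Argonautes AGO1, AGO2, AGO3 and AGO4. A gene counted as measured where a transcript cluster, the array's unit for 1 transcribed locus, was annotated with exactly 1 symbol equal to its name, and the brightest cluster stood for a gene with several. Of the 10 genes, 5 met this (DICER1, DROSHA, XPO5, TARBP2 and PRKRA), out of 22465 genes named in the same way. The 4 Argonaute clusters carried the current symbol together with the older EIF2C symbol, which RefSeq lists as a synonym of the same gene. The cluster of DGCR8 also carried MIR1306 and MIR3618, so its signal belongs to all 3 annotated genes and it is called the DGCR8 cluster. These 5 clusters are described beside the others. DICER1 was chosen by its measured value, a signal higher in the knockdown arrays, so its difference is a description with no test. The other 9 were chosen as its partners.

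Both groups were labelled as stable lines of HepG2, an established liver cancer line derived from a hepatoblastoma. The vector group (3 arrays) carried the empty pLKO plasmid, and the shSND1 group (3 arrays) carried pLKO with the hairpin named shSND1-#1. Every culture of both groups had received fluorouracil, a pyrimidine analogue that blocks thymidylate synthase, at 6 µg/mL for 48 h. All differences are therefore between knockdown and vector cells under the drug. With 1 hairpin against an empty vector, loss of SND1, other effects of that hairpin and effects of carrying any hairpin cannot be told apart. Nothing in the labels ties the replicates of a group to different cultures. A p-value here reflects array-to-array spread only, and that spread may be technical.

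MicroRNAs are cut from long primary transcripts in the nucleus by the Microprocessor, in which DROSHA is the nuclease and DGCR8 the RNA-binding subunit. XPO5 carries the hairpin precursor to the cytoplasm, where DICER1 removes the loop with the help of TARBP2 or PRKRA, and 1 strand is loaded into an Argonaute protein to form the RNA-induced silencing complex. SND1, also called Tudor-SN, is a nuclease with Tudor and staphylococcal nuclease-like domains that has been found with this complex and that degrades edited microRNA precursors.

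The values were log2 signals made by the authors with RMA (robust multi-array average). SND1 shares its cluster with SND1-IT1, and the signal was 7.28 ± 0.14 (SD, n = 3) in vector and 5.80 ± 0.10 (SD, n = 3) in shSND1 cells, and 35.6% of the vector signal remained (limma adjusted p = 0.0166 over 67528 clusters). That adjusted p was 0.0411 without vector replicate 3 and 0.0773 to 0.249 without any other array. Median signals of the arrays ran from 3.58 to 3.73 over all clusters. Vector replicate 1 and shSND1 replicate 1 lay at the ends of the first principal component (-14.1 and 10.3), with vector replicate 3 at 1.2, so the arrays of a group were not tightly together. Signals of liver markers were low for cells labelled HepG2: of 10 measured hepatocyte markers 7 lay below the median of named genes (4.83), with ALB at 1.82 and AFP at 1.51 in vector cells. The brightest were APOA2, at 7.79 in vector and 7.87 in shSND1 cells, and SERPINA1, at 5.79 and 5.36. The SERPINA1 groups were apart, with a difference of -0.43 (SE 0.07, limma adjusted p = 0.0831) that did not pass. The identity of the line is therefore known here from its label only, and it was not tested. Of 9 measured leukocyte, endothelial and fibroblast markers, 8 lay below that median. Each value is an average over all cells of a culture, so fewer cells of a type and less RNA per cell cannot be told apart.

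DICER1 stood higher in the SND1 knockdown arrays. Its log2 signal was 6.24, 6.27 and 6.17 on vector replicates 1, 2 and 3 and 6.64, 6.79 and 6.79 on shSND1 replicates 1, 2 and 3. The lowest knockdown array lay above the highest vector array, and the gap between the groups was wider than the spread within either. The group means were 6.23 ± 0.05 and 6.74 ± 0.09 (SD, n = 3 each), a difference of 0.51 (SE 0.06, limma) or 1.43-fold. Leaving out each array in turn gave differences from 0.48 (without vector replicate 3) to 0.56 (without shSND1 replicate 1). Over all 16 alternatives in which it was recomputed it lay between 0.46 and 0.56. Several of these, such as the replicate block, could not move a difference of group means, so their agreement was fixed in advance. The others reused the arrays by which DICER1 was chosen, so the range is a description only.

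**Figure D1:**
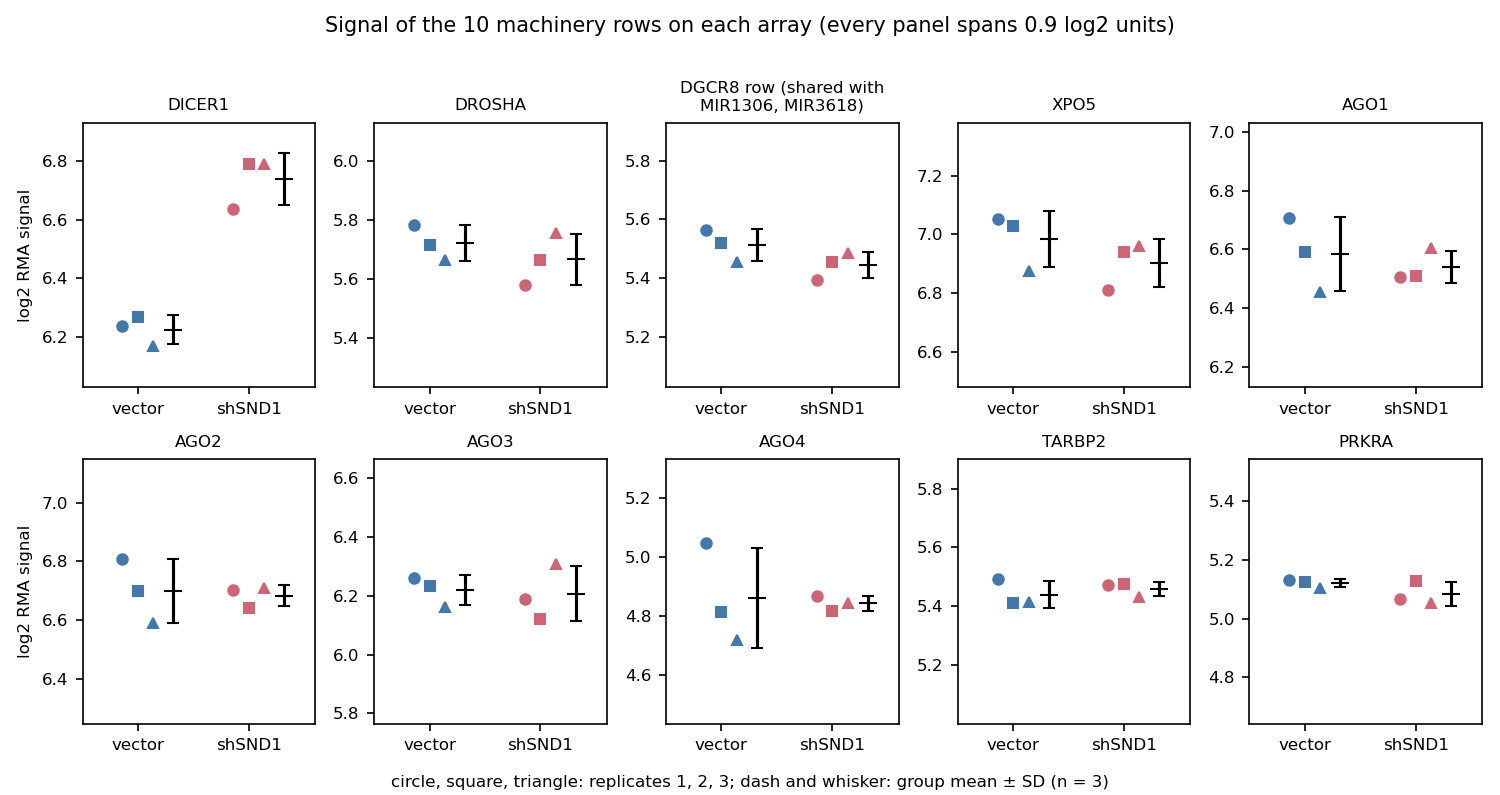
Log2 RMA signal (vertical axis) of the 10 machinery clusters on each array, with the vector group in blue and the shSND1 group in red, symbols for replicates 1 to 3 and the group mean ± SD (n = 3) beside them. Every panel spans the same height; the DICER1 groups (6.17 to 6.27 and 6.64 to 6.79) are apart, and the groups of the other 9 clusters overlap.

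The DICER1 gene on chromosome 14 starts head to head with DICER1-AS1, a long noncoding RNA gene on the opposite strand. RefSeq's promoter table holds 5 start windows for DICER1, and the one nearest to DICER1-AS1 shares 258 bases with the window of that gene. The stretch between both starts is shown because it is the region from which both transcripts run outward. It covers chr14:95157530-95157687 on GRCh38.p14, read on the minus strand, the strand of DICER1, and is 158 bases long with 74.7% G and C and 19 CG dinucleotides. Capitals mark matches to CCAAT and GGGCGG, searched on both strands.
DICER1 to DICER1-AS1 stretch: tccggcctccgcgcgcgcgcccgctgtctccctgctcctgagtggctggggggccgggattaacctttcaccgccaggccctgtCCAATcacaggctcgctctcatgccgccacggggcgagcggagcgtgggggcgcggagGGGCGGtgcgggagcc
Of 35116 promoter windows of 300 bases in that table, 34.6% held CCAAT and 45.0% held GGGCGG on either strand. TATAAA, held by 11.5% of windows, had no match in this stretch. The table had 17 windows for 9 of the 10 machinery genes. Of these windows 8 held CCAAT, 13 held GGGCGG and 0 held TATAAA. Counted by gene, 6 of the 9 had a window with CCAAT, 8 one with GGGCGG and 0 one with TATAAA. Some genes had several windows, so the gene counts are not set against the shares of windows. These matches describe letters and are not sites of a factor.

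DICER1-AS1 had signals of 4.42, 4.60 and 4.64 on the vector arrays and 4.80, 4.64 and 4.67 on the knockdown arrays. Vector replicate 3 lay above shSND1 replicate 2, so the groups overlapped. The difference of 0.15 (SE 0.08) did not pass (limma adjusted p = 0.496). Whether the labelling kept strand is not given in the sources used here, so signal of an antisense gene is uncertain.

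CLMN, which encodes the actin-binding protein calmin and is the next gene beyond DICER1-AS1 in the list of the locus, went the other way. Its signal was 4.30, 4.33 and 4.16 on the vector and 3.90, 3.86 and 3.85 on the knockdown arrays, with no overlap. The difference was -0.40 (SE 0.06, limma adjusted p = 0.0775), which did not pass, and 11.6% of all named genes had non-overlapping groups lower in the knockdown. Further along, SYNE3, a nuclear envelope protein gene, had a difference of 0.04 (SE 0.05, limma adjusted p = 0.803). GLRX5, a mitochondrial glutaredoxin of iron-sulfur cluster assembly, had 0.09 (SE 0.05, limma adjusted p = 0.552), with groups just apart. None of the 4 measured genes beside DICER1 passed after adjustment, CLMN alone had an unadjusted limma p under 0.05, and SNHG10 lay on a shared cluster.

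**Figure D2:**
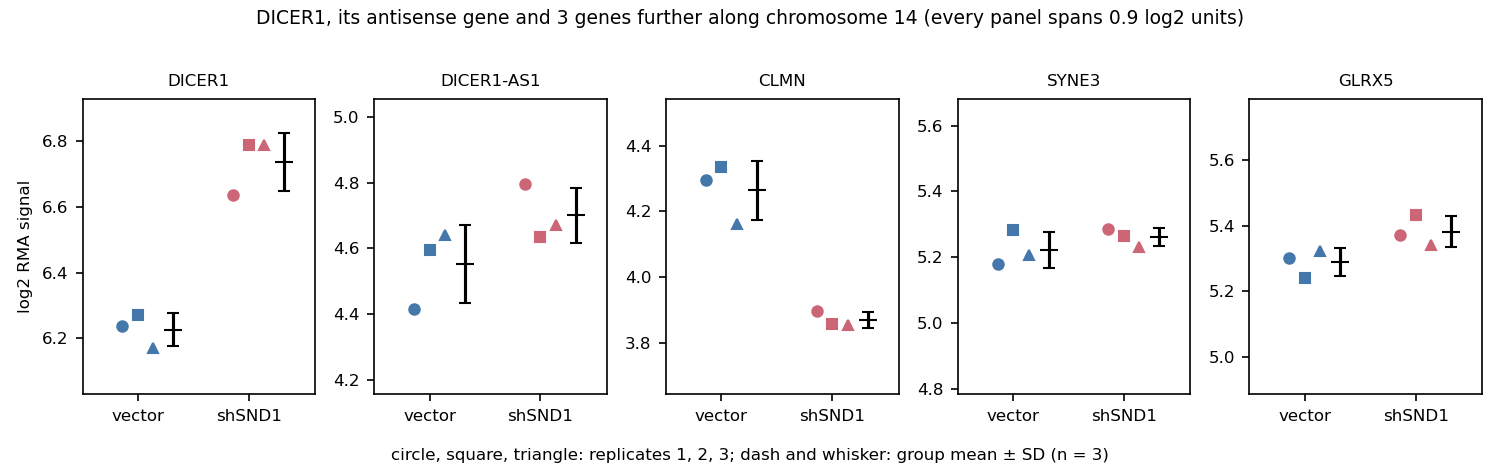
Log2 RMA signal (vertical axis) of DICER1, DICER1-AS1, CLMN, SYNE3 and GLRX5 by array, with vector arrays in blue, shSND1 arrays in red, symbols for replicates 1 to 3 and group mean ± SD (n = 3). DICER1 is higher (0.51) and CLMN lower (-0.40) without overlap of the groups, the GLRX5 groups are just apart (0.09), and the DICER1-AS1 and SYNE3 groups overlap.

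In the nuclear step, neither cluster passed the test. DROSHA, the nuclease that crops primary transcripts, had 5.78, 5.72 and 5.66 on the vector and 5.58, 5.66 and 5.76 on the knockdown arrays. The knockdown arrays spanned nearly the whole range of both groups, and the difference was -0.06 (SE 0.07, limma adjusted p = 0.761). The DGCR8 cluster had 5.56, 5.52 and 5.46 on the vector and 5.40, 5.45 and 5.49 on the knockdown arrays. Its groups overlapped, and its difference of -0.07 (SE 0.07) had a limma adjusted p of 0.784 over all transcript clusters.

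XPO5, the receptor that carries precursors through the nuclear pore, also did not pass. Its signal was 7.05, 7.03 and 6.88 on the vector and 6.81, 6.94 and 6.96 on the knockdown arrays. Vector replicate 3 lay within the knockdown range, and the difference was -0.08 (SE 0.07, limma adjusted p = 0.682). The 95% confidence interval ran from 84.4% to 106% of the vector signal.

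The double-stranded RNA-binding partners of DICER1 had the smallest standard errors of the machinery and did not pass. TARBP2 had 5.49, 5.41 and 5.42 on the vector and 5.47, 5.47 and 5.43 on the knockdown arrays, with a difference of 0.02 (SE 0.05, limma adjusted p = 0.901). PRKRA, known also as the protein activator of the kinase PKR, had 5.13, 5.12 and 5.11 on the vector and 5.07, 5.13 and 5.05 on the knockdown arrays. Its groups overlapped through shSND1 replicate 2, and the difference was -0.04 (SE 0.05, limma adjusted p = 0.801). Intervals of the change ran from 93.2% to 110% of the vector signal for TARBP2 and from 89.8% to 106% for PRKRA.

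The 4 Argonautes, of which AGO2 is the slicing enzyme of the silencing complex, did not pass either. AGO2 had 6.81, 6.70 and 6.59 on the vector and 6.70, 6.64 and 6.71 on the knockdown arrays. The knockdown arrays fell inside the vector range, and the difference was -0.01 (SE 0.07, limma adjusted p = 0.951 over 22618 genes, with older symbols resolved). AGO1 had 6.71, 6.59 and 6.45 on the vector and 6.51, 6.51 and 6.60 on the knockdown arrays, with a difference of -0.04 (SE 0.07, limma adjusted p = 0.84).

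AGO3 had 6.26, 6.23 and 6.16 on the vector and 6.19, 6.12 and 6.31 on the knockdown arrays, a difference of -0.01 (SE 0.07, limma adjusted p = 0.957). AGO4 had 5.05, 4.81 and 4.72 on the vector and 4.87, 4.82 and 4.84 on the knockdown arrays, a difference of -0.02 (SE 0.09, limma adjusted p = 0.954). All knockdown arrays of AGO1 and AGO4 also lay within the vector range, and vector replicate 1 was the highest array for AGO1, AGO2 and AGO4. Without vector replicate 1 the 4 differences were 0.02 (AGO1), 0.04 (AGO2), 0.01 (AGO3) and 0.08 (AGO4), so the 4 signs turned without that array. AGO4, AGO1 and AGO3 follow each other on chromosome 1, and their coding sequences are related, so probes may not keep the paralogues fully apart; this was not tested.

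Beside DICER1, 0 of the 9 other clusters passed at a limma adjusted p under 0.05, and 0 had an unadjusted limma p under 0.05. Over all 22465 named genes 0.169% were called, 0.0312% higher (7 genes) and 0.138% lower (31 genes), and 12.2% had an unadjusted p under 0.05. With older symbols resolved the share called was 0.168%, and over all 67528 transcript clusters it was 0.0118%. Of all calls 18.4% were higher as deposited and 6.67% after each array was centred on its median. DICER1 is 1 of the 7, and it was chosen for that, so nothing is read from its place among them. The 9 differences ranged from -0.08 to 0.02 with standard errors of 0.05 to 0.09, and 8 were negative. Of the 22465 named genes, 10578 had negative differences. Of the 10 machinery clusters, DICER1 included, 6 were negative after renewed quantile normalization and 9 with centred arrays. All 9 partners had overlapping groups. Non-overlapping groups were found for 17.9% of named genes. The median difference was -0.04 over these 9 clusters and 0.01 over all named genes. The lowest bound of their 95% confidence intervals was 84.4% of the vector signal (XPO5) and the highest was 113% (AGO4). For these 9, exact two-sided permutation p-values lay between 0.2 and 1, where 0.1 is the smallest that 3 arrays against 3 allow.

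**Figure D3:**
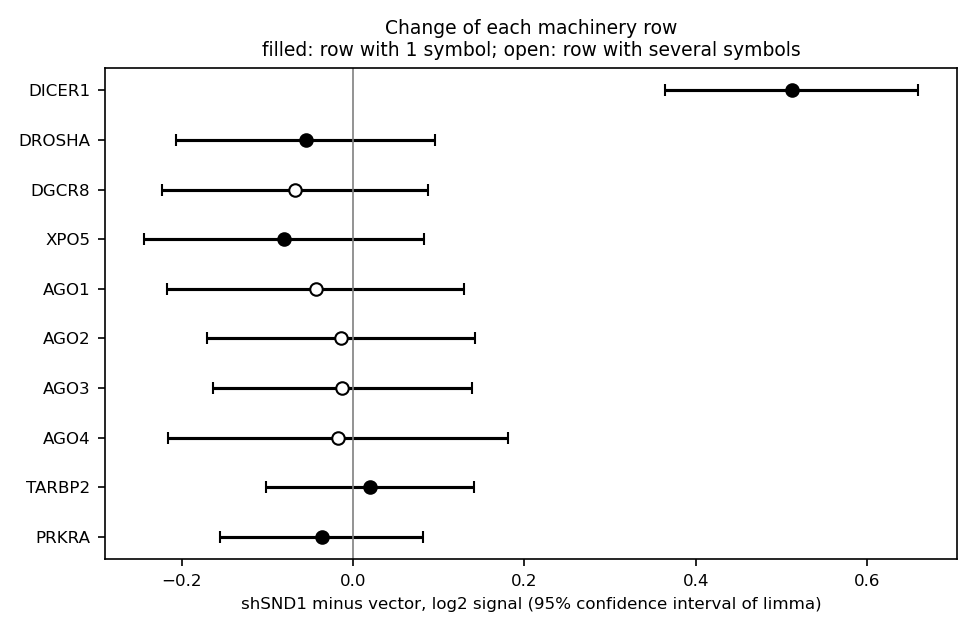
Difference in log2 signal, shSND1 minus vector (horizontal axis), of each machinery cluster with the 95% confidence interval of limma (bars); filled points are clusters with 1 symbol and open points clusters with several. The intervals of the 9 partners of DICER1 include 0, and DICER1, which was picked for its difference, stands at 0.51. The interval drawn for DICER1 takes no account of that choice and is not read as a test.

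Across single arrays, 8 of the 9 partners of DICER1 had their highest signal on vector replicate 1 and 1 on shSND1 replicate 3. The same count was not made over all named genes, so it is not read as particular to the partners. The median of the 9 clusters on vector replicate 1 lay 0.06 above their vector means, and on the other 5 arrays it lay between -0.06 and 0.00. Vector replicate 1 was also at the low end of the principal component named above and had the lowest array median (3.58). The part of these array properties in the members' values was not tested.

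The 5 bright genes whose signals followed DICER1 most closely were RNU1-10P, SNORA24, KIF2C, IGF2BP3 and MTF2. Their Pearson correlations over the 6 arrays were 0.998, 0.989, 0.989, 0.988 and 0.987, the highest among 11231 genes above the median level, and are given as a description. The 6 points share the split into groups and the arrays' common normalization. IGF2BP3, an RNA-binding protein gene, had 7.46, 7.43 and 7.34 on the vector and 7.70, 7.76 and 7.82 on the knockdown arrays, a difference of 0.35 (SE 0.06). MTF2, a gene of a Polycomb accessory protein, had a difference of 0.39 (SE 0.07), and KIF2C, a mitotic kinesin gene, had 0.20 (SE 0.05). The differences were 0.18 (SE 0.05) for RNU1-10P, a U1 pseudogene, and 0.32 (SE 0.05) for SNORA24, a small nucleolar RNA gene, and near-identical copies make both uncertain. None of the 5 passed (limma adjusted p from 0.0831 to 0.21). Within the groups, MTF2 and RNU1-10P had correlations of 0.989 and 0.975 with DICER1, and KIF2C, IGF2BP3 and SNORA24 had 0.862, 0.818 and 0.786. The 5 were picked by their correlation over these arrays, so their differences and these values are descriptions only. CD47 reached 0.9995 within the groups, with -0.477 over the 6 arrays. The other machinery clusters had correlations with DICER1 from -0.51 (PRKRA) to 0.28 (TARBP2) over the same arrays.

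Protein partners of the pathway were read from 6 lists: Microprocessor cofactors, GW182 proteins and other partners of the silencing complex, loading chaperones, deadenylation and decapping factors, factors of microRNA tailing, editing and turnover, and export partners. Of 92 genes 81 were measured, 8 lay on shared clusters and 3 had no row. None of the 81 passed over all named genes in either direction. Before adjustment 2 were higher and 6 lower at a limma p under 0.05, together 9.88% against 12.2% of all named genes (4.85% higher and 7.34% lower). Their median difference was -0.02 against 0.01 over all named genes. Groups did not overlap for 17 genes that were lower (21.0%, against 11.6% of named genes) and 5 that were higher (6.17%, against 6.33%). The 81 genes were brighter, with a median level of 6.52 against 4.83 for named genes, and 3 lay below that median. Genes of like level were not compared, so nothing is read from the larger share.

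Among 9 measured Microprocessor cofactors, the brightest were ILF2, a nuclear factor that binds double-stranded RNA, with 9.01 ± 0.07 and 8.97 ± 0.07, and the RNA helicase gene DDX17 with 8.82 ± 0.09 and 8.66 ± 0.08 (SD, n = 3, vector and knockdown). Their differences were -0.03 and -0.16, with limma adjusted p-values of 0.85 and 0.416. Among 16 partners of the silencing complex, AJUBA and FXR2, a paralogue of the fragile X protein, had differences of 0.02 (SE 0.09) and -0.11 (SE 0.05). After their values were seen, TNRC6B, 1 of 3 GW182 scaffolds that recruit deadenylases to Argonaute, is named with -0.23 (SE 0.07, limma adjusted p = 0.27) and MOV10, a helicase bound to Argonaute, with -0.22 (SE 0.06, limma adjusted p = 0.214). TNRC6B signals were 7.29, 7.21 and 7.07 on the vector and 6.93, 6.91 and 7.05 on the knockdown arrays, and the groups were just apart. The other 2 scaffold genes, TNRC6A and TNRC6C, had -0.09 (SE 0.07) and -0.05 (SE 0.06), with overlapping groups.

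Of 8 measured loading chaperones, HSP90AA1, the stress-inducible HSP90 that opens Argonaute for a duplex, had 8.97, 9.04 and 8.95 on the vector and 8.57, 8.78 and 8.71 on the knockdown arrays. Those groups were apart, with a difference of -0.30 (SE 0.07, limma adjusted p = 0.154) that did not pass. Its constitutive paralogue HSP90AB1 had 10.08 ± 0.03 and 10.09 ± 0.09 (SD, n = 3), a difference of 0.01 (SE 0.06). Of 26 deadenylation, decapping and repression genes, PABPC1, the poly(A)-binding protein gene, had 0.09 (SE 0.06) and CNOT1, the scaffold of the CCR4-NOT deadenylase, had -0.04 (SE 0.06). In the same list DCP2, the decapping enzyme gene, had 0.25 (SE 0.06, limma adjusted p = 0.167) and PAN2, a deadenylase subunit gene, -0.22 (SE 0.07, limma adjusted p = 0.248), both named after their values were seen.

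Of 17 tailing, editing and turnover genes, 0 had an unadjusted limma p under 0.05, against 12.2% of all named genes. ADAR, which edits adenosine in double-stranded RNA, had 7.95 ± 0.08 and 7.84 ± 0.06 (SD, n = 3), a difference of -0.11 (SE 0.06), and the exonuclease gene XRN2 had 0.03 (SE 0.05). LIN28A and LIN28B, which block let-7 maturation, had signals of 3.15 and 2.58 in vector cells, below the median of named genes, and differences of 0.07 (SE 0.09) and 0.08 (SE 0.12). Of 5 measured export partners, RAN, the GTPase that loads XPO5, had 0.12 (SE 0.07) and the nuclear pore gene NUP153 0.03 (SE 0.06). None of the 5 had an unadjusted limma p under 0.05. Groups did not overlap for 2 of the 5, both higher (40%, against 6.33% of named genes), and 0 were lower. With lists this short, nothing is read from these counts.

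**Figure D4:**
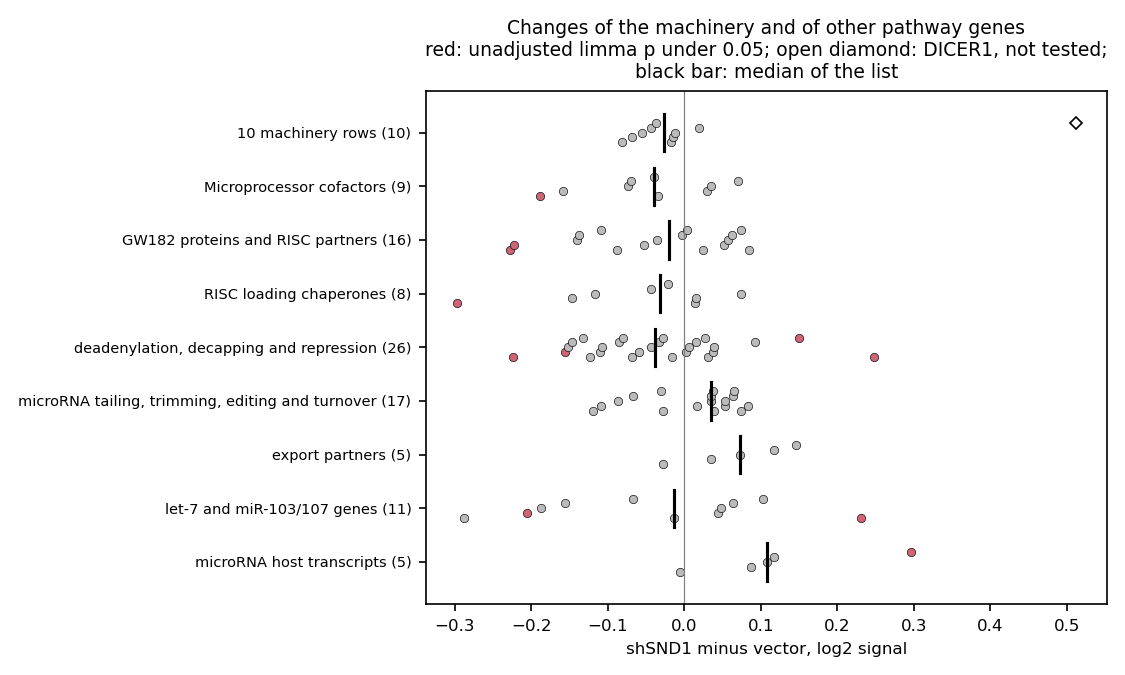
Difference in log2 signal, shSND1 minus vector (horizontal axis), of each gene in the machinery and in 8 related lists (number measured in parentheses); red points have an unadjusted limma p under 0.05, the open diamond is DICER1, which is not tested, and black bars are list medians. No gene of the 8 lists passed after adjustment, and list medians lie between -0.04 and 0.11.

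The let-7 family and the family of miR-103 and miR-107 are known to target DICER1 messenger RNA, so the genes of both were examined. Mature sequences from RefSeq (GRCh38.p14) are shown for members of each family to make the shared seed visible, with bases 2 to 8 in capitals.
hsa-let-7a-5p: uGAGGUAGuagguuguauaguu
hsa-let-7g-5p: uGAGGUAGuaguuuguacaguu
hsa-let-7i-5p: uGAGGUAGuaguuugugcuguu
hsa-miR-98-5p: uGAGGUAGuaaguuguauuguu
hsa-miR-103a-3p: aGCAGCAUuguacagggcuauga
hsa-miR-107: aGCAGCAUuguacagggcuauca
The let-7 members and miR-98 share the seed GAGGUAG, and miR-103a and miR-107 share GCAGCAU. MIRLET7A1 encodes its mature form at chr9:94175962-94175983 (plus strand), MIRLET7A2 at chr11:122146568-122146589 (minus strand), MIR98 at chrX:53556299-53556320 (minus strand) and MIR107 at chr10:89592756-89592778 (minus strand). MIRLET7A1 and MIRLET7A2 give the same mature microRNA, so array rows for the 2 genes report loci and not the amount of mature let-7a. Which RNA species such rows report, primary, precursor or mature, is not given in the sources used here.

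Of 15 listed genes of these families 11 were measured, all below the median of named genes, 2 lay on shared clusters and 2 had no row. None passed over all named genes. After their values were seen, MIRLET7A2 is named with 2.38, 2.16 and 2.14 on the vector and 2.43, 2.52 and 2.42 on the knockdown arrays (difference 0.23, SE 0.08, limma adjusted p = 0.28). MIR98 had 3.66, 3.91 and 3.65 on the vector and 3.57, 3.52 and 3.51 on the knockdown arrays (difference -0.21, SE 0.08, limma adjusted p = 0.357). These 2 genes have the same seed and opposite signs, and both had signals below the median of named genes.

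MIRLET7A1, the other locus of let-7a, had a difference of 0.10 (SE 0.10), with overlapping groups. MIRLET7I, the brightest of the list, had 4.33 ± 0.10 and 4.37 ± 0.27 (SD, n = 3), a difference of 0.04 (SE 0.13). MIR107 had -0.01 (SE 0.14). The cluster of MIR103A1 and MIR103B1, which overlap, had 0.03 (SE 0.11), and that of MIR103A2 and MIR103B2 had -0.21 (SE 0.20). The median standard error of the list was 0.12, against 0.05 to 0.09 for the machinery clusters, so its changes were measured less precisely.

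Of 1040 microRNA genes with a cluster of their own, 72 were higher and 61 lower before adjustment (limma p under 0.05), together 12.8% against 12.2% of all named genes, and their median difference was 0.02. Adjusted over all named genes, 1 of the 1040 rose and 0 fell, where 0.169% of all named genes were called. Nothing is read from that count. The 1 gene, named after its value was seen, was MIR188 on chromosome X, with 3.54, 3.44 and 3.39 on the vector and 3.90, 4.0 and 3.98 on the knockdown arrays. The groups were apart, and the difference was 0.50 (SE 0.06, 1.42-fold, limma adjusted p = 0.041), with a signal below the median of named genes. Its limma adjusted p was between 0.0537 and 0.272 without any 1 of the 6 arrays, so its call rested on the full set. It passed in 4 of 14 alternatives, and the filter on dim genes removed it. Both mature arms are shown because it was the only microRNA gene past the threshold.
hsa-miR-188-5p: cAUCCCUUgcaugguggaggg
hsa-miR-188-3p: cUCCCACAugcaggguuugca
The arms lie at chrX:50003517-50003537 and chrX:50003556-50003576 (plus strand, GRCh38.p14), and neither has the seed of either family above.

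Of 18 listed host transcripts of microRNAs, 5 were measured, 10 lay on clusters shared with their microRNAs and 3 had no row. None passed. MIR210HG, the host of the hypoxia-induced miR-210, had 5.31 ± 0.14 and 5.61 ± 0.19 (SD, n = 3), a difference of 0.30 (SE 0.11, limma adjusted p = 0.332) with overlapping groups, and MIR31HG had 0.11 (SE 0.19).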

How the data were processed

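Total RNA of 6 samples was measured on Affymetrix arrays. The deposited values are log2 signals that the authors summarised with RMA, per the submitters' processing notes; its version and options were not recorded there. RMA usually includes quantile normalization and compresses dim signals, so changes of dim genes can be understated. Of 70523 features, the 67528 transcript clusters were kept. Symbols came from GEO's platform annotation: 23781 clusters had 1 symbol, giving 22465 named genes, and 1543 had several. Of these, 229 held the current and an older RefSeq symbol of 1 gene. Groups came from the sample titles. Differences (shSND1 minus vector) came from limma 3.58.1 (lmFit, then eBayes) under R 4.3.3, with Benjamini-Hochberg adjustment over all named genes and a threshold of 0.05. Argonaute clusters were adjusted over 22618 genes after older symbols were resolved, and the DGCR8 cluster over all clusters. No adjustment was made over a list alone. Precision is limited by having 3 arrays in each group, and no detection calls were used. The 10 members and the 11 lists were chosen with earlier results of these data known. Genes were named by a rule: all members, the genes listed at the DICER1 locus, the SND1 cluster, for each list up to 4 genes past the threshold or else the 2 brightest, and the 5 genes above the median level most correlated with DICER1. ALB, AFP, LIN28A, LIN28B, TNRC6A, TNRC6C, MIRLET7A1, CD47 and the genes so marked in the text fall outside it and were named after their values were seen. No 2 arrays held identical values. The fit was repeated with a replicate block, a filter on dim genes, renewed normalization, centring, a floor, other variance models, array weights, adjustment over all clusters, another choice of cluster and leaving out each array. The fit was also run on simulated data with errors independent between genes and arrays. Such data lack the patterns that many genes share across these arrays, so the run does not vouch for the calls. Sequences are RefSeq's (GRCh38.p14), and the build of the array design is not given in the sources used here. Figures were drawn with matplotlib 3.10.9.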

Additional observations from a re-analysis of the deposited data

How the results depend on the processing

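The DICER1 difference lay between 0.46 and 0.56 over 16 alternatives. Several of these, such as the replicate block and adjustment over all clusters, could not move it, and all reused the arrays by which DICER1 was chosen. The 9 other clusters never passed in the alternatives run for them. The count of machinery genes higher past the threshold consists of DICER1, which was chosen by that value, so it is a description. It covered the 5 clusters with 1 symbol in most settings, 10 clusters with adjustment over all clusters and 9 with older symbols resolved. The count was 1 as deposited. It was 0 with the replicate block, centred arrays, the floor at the 30th percentile and adjustment over all transcript clusters. Without each single array it was also 0, and the count lower was 0 throughout. These counts come from the arrays by which DICER1 was chosen, so nothing is read from them. Named genes called higher and lower (7 and 31) became 0 and 1 with the replicate block, 84 and 187 without the dimmest 40%, 12 and 49 after renewed quantile normalization, 1 and 14 with centred arrays, 0 and 0 with the floor, 27 and 106 with a variance trend and robust fitting together, and 504 and 753 with array weights, and ranged from 0 to 6 and 0 to 29 without 1 array. Adjusted over all transcript clusters, 1 and 7 clusters were called, the shared SND1 cluster among them, a count of clusters rather than of named genes. Array weights gave vector replicate 2 a weight of 7.55 and called 5 other pathway genes: HSP90AA1, TNRC6B, MOV10 and PAN2 lower and DCP2 higher. The cause of these moves was not tested. Centring moved the median of named genes from 0.01 to -0.05, by less than 0.1. Signs turned for TARBP2 with centred arrays (-0.037) and for AGO2 and AGO3 after renewed normalization (0.013 and 0.0060). Leaving out 1 array gave AGO1 -0.109 to 0.018, AGO2 -0.069 to 0.040, AGO3 -0.063 to 0.030 and AGO4 -0.088 to 0.077, positive for all 4 without vector replicate 1 and for AGO2 and AGO3 without shSND1 replicate 2; none passed. The replicate numbers did not pair the samples: deviations of same-numbered arrays correlated at -0.364, 0.107 and -0.486, and 1 of 6 arrays correlated best with its own number. Of the 5 genes most like DICER1, 0 were among the 5 most like it within groups.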
